A study of Homo sapiens with 2 samples.

Results

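The cells described here held DPPA3 RNA without the RNA of the human 8-cell (8C) stage genes. They were selected on the measured UMI counts of DPPA3 and 6 8C genes, where a UMI (unique molecular identifier) stands for 1 captured RNA molecule. Barcodes had to show 1000 or more detected genes and a mitochondrial share below 20%. A member had 2 or more UMIs of DPPA3, fewer than 3 of KHDC1L and no UMI of ZSCAN4, LEUTX, TPRX1, DUXA or DUXB. By this rule 1900 of 15637 kept cells (12.2%) were DPPA3 cells without 8C genes, called DPPA3 cells below. They were compared, within a library, with the 10403 cells that had 0 UMIs of DPPA3. A further 551 cells had 2 or more DPPA3 UMIs but broke the 8C limits. The values of the 7 genes of the rule are therefore a description.

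The data are 2 single-cell libraries of H9, a widely used line of human embryonic stem cells, in culture for the naive state. Whether the cells were in that state was not tested. GEO's labels place the cells in RSeT medium with 10 nM DZNep, an inhibitor of histone methylation, and 5 nM TSA, a histone deacetylase inhibitor. Both groups also met, until 24 h, the stress response inhibitor trans-ISRIB (0.7 µM), the caspase inhibitor emricasan (5 µM) and the ROCK inhibitor Y-27632 (10 µM). The cells were transfected with 25 nM of a dye-labelled oligonucleotide: SO-L1 is the sense control and ASO-L1 is antisense to LINE1 RNA. The dye-positive cells were sorted at 48 h. Each group is 1 library of 1 line, so nothing here was tested, and differences between ASO-L1 and SO-L1 cannot be told apart from differences between 2 libraries. All intervals are exact 95% intervals that cover counting error only and leave out the spread between cells. Both libraries were divided by the mitochondrial share of a cell's UMIs into a low class (below 2%) and an ordinary class (2% or more). The comparison was made within each class.

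DPPA3 (also called STELLA or PGC7) encodes a small protein laid down in the egg, kept through early cleavage and made again in primordial germ cells and in naive pluripotent cells. It binds UHRF1, the protein that brings the maintenance methyltransferase DNMT1 to replicating DNA, and so limits the copying of DNA methylation. In the human embryo the 8C genes are switched on with the main wave of genome activation, and naive stem cell cultures hold a minority of cells with such genes. DPPA3 lies on chromosome 12 at 7711454-7717559 on the plus strand (GENCODE 29, GRCh38), between GDF3 and NANOG.

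The 250 bases before the RefSeq start of DPPA3 are shown because the results turn on cells that hold its RNA without UMIs of the 8C homeodomain genes (chr12:7711183-7711432, plus strand, GRCh38.p14). The capitals mark TAATCC, letters that several paired-like homeodomain proteins prefer.
DPPA3 promoter: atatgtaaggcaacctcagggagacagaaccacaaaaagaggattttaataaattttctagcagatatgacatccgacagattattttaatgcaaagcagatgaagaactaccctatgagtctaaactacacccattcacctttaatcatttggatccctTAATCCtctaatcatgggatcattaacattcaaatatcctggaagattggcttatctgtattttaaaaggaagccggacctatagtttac
TAATCC, searched on both strands, was found in 5.62% of 35116 RefSeq promoter windows of the same length. CACCC, the core of the motif of KLF proteins, occurred 1 time in this window and at least once in 54.7% of windows. The octamer ATGCAAAT of POU proteins had 0 matches here and was found in 1.63% of windows. A match describes letters only.

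DPPA3 cells were counted in all 4 classes of cells. In the ordinary class they made up 9.14% of SO-L1 cells (429 of 4696, interval 8.33 to 10.0) and 17.1% of ASO-L1 cells (1120 of 6553, 16.2 to 18.0). In the low class they made up 8.51% of SO-L1 cells (158 of 1857, 7.28 to 9.87) and 7.63% of ASO-L1 cells (193 of 2531, 6.62 to 8.73). The ASO-L1 share was thus above that of SO-L1 in the ordinary class, while the intervals overlap in the low class. ASO-L1 cells were also read more deeply, with a median of 53959.5 UMIs per kept cell against 42314. Each cell was also thinned to 8000 UMIs and the rule applied again, so that cells could become or cease to be DPPA3 cells. The ordinary shares were then 2.15% in ASO-L1 (136 of 6329) and 0.713% in SO-L1 (31 of 4350). The low-class shares were 2.42% (54 of 2235) and 2.90% (45 of 1554). Thinning left out 224 ordinary and 296 low cells of ASO-L1, and 346 and 303 of SO-L1. The 8C limits removed little from most classes and much from one. DPPA3 cells were 95.1% of the ordinary and 85.4% of the low SO-L1 cells with 2 or more DPPA3 UMIs, 85.9% of the ordinary ASO-L1 cells and 37.8% of the low ASO-L1 cells, where 318 cells were excluded.

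**Figure D1:**
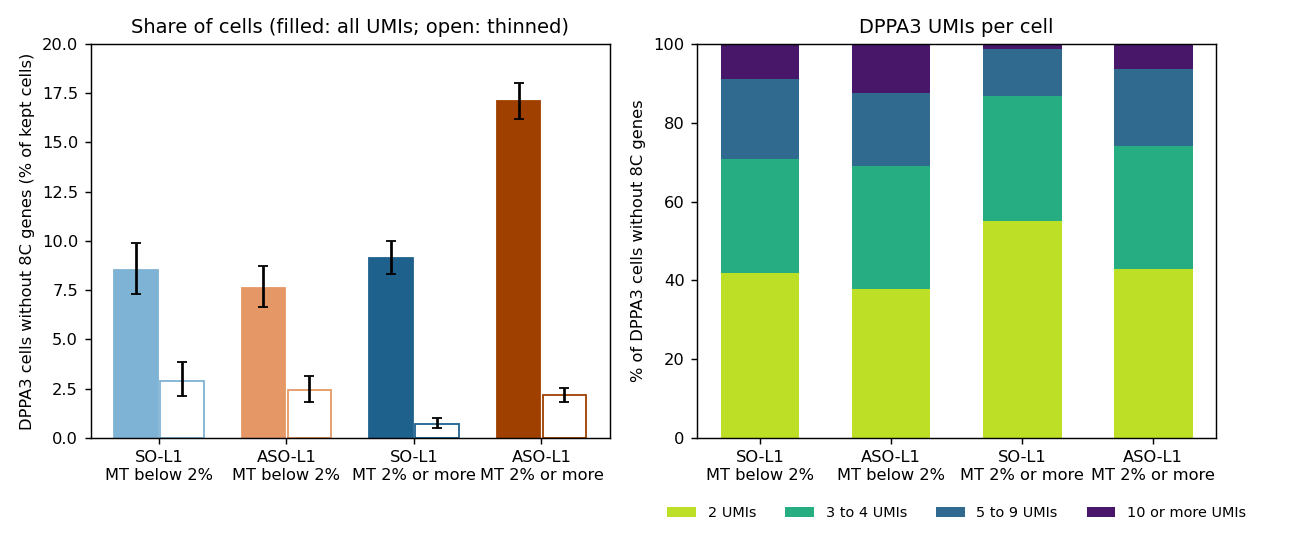
Share of kept cells that were DPPA3 cells without 8C genes (left) and number of DPPA3 UMIs per DPPA3 cell (right), by library and mitochondrial class; bars on the shares are exact 95% counting intervals. The ordinary ASO-L1 class stands highest at 17.1%, and in each class the largest group of cells held exactly 2 DPPA3 UMIs.

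Many DPPA3 cells lay close to the limit of the rule. Exactly 2 DPPA3 UMIs were found in 236 of the 429 ordinary SO-L1 cells, 481 of the 1120 ordinary ASO-L1 cells, 66 of the 158 low SO-L1 cells and 73 of the 193 low ASO-L1 cells. Just outside, 725, 1293, 203 and 262 cells of these classes held 1 DPPA3 UMI and met the other limits. At the other end, 5, 71, 14 and 24 cells held 10 or more, with a maximum of 13, 38, 30 and 39. The summed DPPA3 level of the cells was 62.1 and 68.1 CPM (UMIs of a gene per 1000000 non-mitochondrial UMIs) in the ordinary SO-L1 and ASO-L1 class, and 105 and 97.7 CPM in the low class. On the KHDC1L side, 14 low and 22 ordinary ASO-L1 DPPA3 cells held 2 KHDC1L UMIs and 0 SO-L1 cells did. Just outside that limit were 9 and 5 ASO-L1 cells with 3 KHDC1L UMIs and none of the other 5 genes.

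DPPA3 UMIs were more bunched than an even spread over cells of the same depth would give. Among cells within the 8C limits, 1.24% of ordinary SO-L1 cells had 5 or more DPPA3 UMIs, against 0.0287% for an even spread, and 4.90% of ordinary ASO-L1 cells did, against 0.732%. The low class gave 2.71% against 0.117% in SO-L1 and 3.92% against 0.768% in ASO-L1. At the limit of 2 UMIs the excess was absent in 3 of the 4 classes: the ordinary SO-L1 share was 9.35% against 8.01%, but the ordinary ASO-L1 share was 18.8% against 26.0%, and the low shares were 9.32% against 11.6% and 12.6% against 21.8%. Free RNA in the droplets can also give a cell a DPPA3 UMI. In ordinary cells with 5 or more UMIs of PAX6, a neural gene, thinned to 8000 UMIs, 0 of 38 SO-L1 cells (interval up to 9.25%) and 6.82% of 88 ASO-L1 cells (2.54 to 14.3) held one, against 7.33% and 12.6% of all kept ordinary cells. In ASO-L1 the share was 10.8% in cells with 5 or more CER1 UMIs, 12.4% in PLA2G2A cells and 14.5% in IL24 cells, and in SO-L1 it was 5.88% in PLA2G2A cells. The median depth of the PAX6 cells was 46943 and 68579 UMIs, and that of all ordinary cells 45154 and 56296. DPPA3 cells were deeper than DPPA3-zero cells in every class, with medians of 50187 against 43779 UMIs in ordinary SO-L1 and 58765 against 54380 in ordinary ASO-L1 cells, and of 41837.5 against 31711 and 50832 against 41183 in the low class. The libraries shared 274 kept barcodes, which 3 SO-L1 and 57 ASO-L1 DPPA3 cells carried, and 0 of these barcodes was a DPPA3 cell in both.

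In the ordinary class pluripotency genes were abundant in the DPPA3 cells, about as in DPPA3-zero cells. General pluripotency genes summed to 8669 and 8070 CPM in ordinary SO-L1 and ASO-L1 DPPA3 cells, against 8601 and 7999 CPM in DPPA3-zero cells. Naive genes there summed to 2800 and 2719 CPM, against 2422 and 2486 CPM. In the low class general pluripotency genes summed to 7034 against 6097 CPM in SO-L1, and to 6844 against 4048 CPM in ASO-L1. Low-class naive genes summed to 2949 against 2756 CPM, and to 3065 against 2885 CPM. The 34 other 8C genes in the list summed to 286 CPM in ordinary SO-L1 DPPA3 cells and 287 CPM in DPPA3-zero cells. In ordinary ASO-L1 the sums were 364 and 369 CPM. In the low class they were 444 and 521 CPM in SO-L1, and 694 and 959 CPM in ASO-L1. DPPA3-zero cells were not held to the 8C limits in these sums, so a lower sum in DPPA3 cells can follow from the rule. ODC1 had the most UMIs of the list in both classes. In low and ordinary SO-L1 DPPA3 cells, 18 and 16 of the 34 genes had 0 UMIs. In low and ordinary ASO-L1 DPPA3 cells, 13 and 11 did. KLF17, an 8C and naive gene, had 3, 16, 6 and 17 UMIs in all low SO-L1, ordinary SO-L1, low ASO-L1 and ordinary ASO-L1 DPPA3 cells. SOX17, which starts the human germ cell fate, had 0 UMIs in the DPPA3 cells of all 4 classes, where a count of 0 allows up to 3 UMIs. No DPPA3 cell and no DPPA3-zero cell had 5 or more UMIs of SOX17 or TFAP2A. The whole germ cell list of 25 genes, many of which pluripotent cells also express, summed to 1152 and 879 CPM in ordinary SO-L1 and ASO-L1 DPPA3 cells and to 1139 and 835 CPM in DPPA3-zero cells. LUZP2, a gene with many UMIs in cells of this culture, reached 5 UMIs in 59.4% of ordinary SO-L1 and 32.5% of ordinary ASO-L1 DPPA3 cells, and in 47.0% and 32.1% of DPPA3-zero cells.

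In the ordinary class DPPA3 cells and DPPA3-zero cells were close. In SO-L1, of the 16495 genes measured (20 or more expected UMIs), 181 (1.10%) stood 1.5-fold or more above the DPPA3-zero cells and 276 (1.67%) stood as far below. In ASO-L1, 134 of 19746 (0.679%) were higher and 573 (2.90%) lower. Of those measured in both libraries, 19 were higher in both, which was 10.5% of the 181 SO-L1 and 38.0% of the 50 ASO-L1 genes, against 0.303% and 1.10% of all genes measured in both. Of the same 181 SO-L1 genes, 12 were at least 1.5-fold lower in ASO-L1, where 1.05% of all genes measured in both libraries were lower. In the other direction 40 were lower in both, which was 14.7% of 273 and 23.1% of 173, against 1.05% and 1.66% of all. These comparisons share no cells.

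PCAT14, a long noncoding RNA on chromosome 22 (23536881-23547797), and DACH1, a transcriptional repressor gene on chromosome 13, were at least 1.5-fold higher in the DPPA3 cells of all 4 classes. Here and below, levels are given for DPPA3 cells first and DPPA3-zero cells second. PCAT14 stood at 57.6 CPM in ordinary SO-L1 DPPA3 cells and 36.7 in DPPA3-zero cells, a ratio of 1.57 (1.47 to 1.67). In ordinary ASO-L1 cells it stood at 62.3 and 34.8 CPM, a ratio of 1.79 (1.72 to 1.86). DACH1 was at 10.7 and 5.16 CPM in ordinary SO-L1 cells, a ratio of 2.08 (1.78 to 2.42), and at 6.07 and 3.74 CPM in ordinary ASO-L1 cells, a ratio of 1.62 (1.43 to 1.83). Its ratio in low ASO-L1 cells, 1.67, was 0.961 when each cell counted equally. ACTC1, a cardiac actin gene chosen after its values were seen, was the only gene at least 1.5-fold lower in all 4. Both results are among the 13592 genes measured in all 4 classes.

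Of maternal and germ cell genes, single members stood higher and the lists as a whole did not in ASO-L1. KHDC3L, a maternal-effect gene of the egg's subcortical complex and mutated in some recurrent hydatidiform moles, stood at 28.6 and 15.6 CPM in ordinary SO-L1 cells, a ratio of 1.83 (1.67 to 2.00), and at 15.1 and 10.5 CPM in ordinary ASO-L1 cells, a ratio of 1.44 (1.33 to 1.55). HORMAD1, a meiotic chromosome axis gene, is on the naive list and not on the germ cell or maternal list. It was at 25.9 and 17.2 CPM in SO-L1 cells, a ratio of 1.51 (1.37 to 1.65). In ASO-L1 it was at 29.8 and 21.5 CPM, a ratio of 1.39 (1.31 to 1.46). PRDM1, a transcriptional repressor needed to specify germ cells, stood at 4.52 and 1.99 CPM in SO-L1, a ratio of 2.27 (1.78 to 2.88), and at 6.21 and 4.21 CPM in ASO-L1, a ratio of 1.48 (1.31 to 1.66), but these became 1.37 and 0.858 when each cell counted equally. DAZL, an RNA-binding germ cell gene, went the other way, at 12.3 and 16.3 CPM in SO-L1 (0.753, interval 0.659 to 0.857) and 6.30 and 8.20 CPM in ASO-L1 (0.769, 0.689 to 0.856). NLRP7, another mole gene, had ratios of 1.48 and 1.23, and NLRP2 of 1.26 and 1.19. KHDC3L and NLRP7 are on the naive list as well as the maternal list. As lists, the germ cell genes had 1 of 16 at least 1.5-fold higher in SO-L1 and none higher in ASO-L1, where 5 of 22 were lower, against 1.10% higher in SO-L1 and 0.679% higher and 2.90% lower in ASO-L1 for all genes. Oocyte and maternal genes had 2 of 12 higher in SO-L1 and 0 of 17 in ASO-L1, with median log2 ratios of 0.14 and −0.0088.

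Among other named genes of the ordinary class, STOM, a membrane scaffold gene on chromosome 9, stood at 53.7 and 38.4 CPM in SO-L1, a ratio of 1.40 (1.31 to 1.49), and at 67.6 and 45.1 CPM in ASO-L1, a ratio of 1.5 (1.45 to 1.56). ABHD12B, a hydrolase gene on chromosome 14, was at 94.7 and 59.4 CPM in SO-L1, a ratio of 1.59 (1.52 to 1.67), and at 132 and 98.6 CPM in ASO-L1, a ratio of 1.34 (1.3 to 1.37). HOXB-AS1 had ratios of 1.53 and 1.48 and GPR1-AS of 1.62 and 1.52, but both are antisense genes, and the sources used here do not say whether counting used strand. RHOJ and GABRR3 also met the naming rule, but 5 cells held 100% and 95% of their UMIs in ordinary SO-L1 DPPA3 cells and 95.2% and 86.9% in ASO-L1. On the lower side stood NCAM1, a neural adhesion gene on chromosome 11, at 3.0 and 13.1 CPM in SO-L1, a ratio of 0.230 (0.176 to 0.295), and at 1.57 and 3.18 CPM in ASO-L1, a ratio of 0.495 (0.399 to 0.610). Other lower genes rested on few UMIs. SCGN, a calcium-binding protein gene with 5 and 3 UMIs in the DPPA3 cells, had ratios of 0.171 (0.0548 to 0.406) and 0.0604 (0.0123 to 0.18). NKX6-2, a neural homeobox gene with 2 and 13 UMIs, had ratios of 0.0870 (0.0104 to 0.32) and 0.387 (0.199 to 0.694). JCAD, a junction protein gene, had ratios of 0.293 and 0.258. ANXA1, a phospholipid-binding protein gene, had ratios of 0.372 and 0.693, but 1.16 in ASO-L1 once the DPPA3-zero cells were held to the 8C limits. PAX6 reached 5 UMIs in 1 of 429 ordinary SO-L1 DPPA3 cells (0.233%, interval 0.0059 to 1.29) and 0.972% of DPPA3-zero cells (0.674 to 1.36). In ordinary ASO-L1 the shares were 1.07% (0.555 to 1.86) and 1.49% (1.13 to 1.92). The intervals overlap in both libraries. The part of PAX6 cells in these lower ratios was not tested.

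Levels were also read by the number of DPPA3 UMIs among cells within the 8C limits. Several of these genes were named for their ratio between cells with 2 or more and with 0 DPPA3 UMIs, so the difference between those ends was fixed by the choice, and the steps are a description. In ordinary ASO-L1 cells with 0, 1, 2, 3 to 4 and 5 or more DPPA3 UMIs, ABHD12B stood at 97.7, 110, 122, 134 and 144 CPM. STOM stood at 45.1, 49.1, 58.8, 69.8 and 78.8 CPM, and PCAT14 at 35.3, 43.4, 52.1, 67.4 and 72.3 CPM. Each step was upward in these cells. The ordinary SO-L1 cells gave the same order for ABHD12B (59.0, 74.3, 91.3, 95.9 and 105 CPM), STOM (38.3, 43.5, 46.2, 56.0 and 77.9 CPM) and PCAT14 (36.8, 40.6, 42.8, 64.4 and 100 CPM). HORMAD1, read here in ordinary SO-L1 cells alone, also rose at each step (17.0, 20.5, 24.1, 25.4 and 34.1 CPM). GDF3 stood at 62.2, 72.8, 83.0, 84.6 and 80.6 CPM in ordinary SO-L1 cells, with no step up at the last bin, and at 40.3, 45.1, 48.5, 50.4 and 56.9 CPM in ASO-L1. NCAM1 went down in SO-L1, from 13.3 through 8.61, 3.87 and 2.53 to 0.689 CPM, and in ASO-L1 stood at 3.38, 3.39, 2.09, 1.05 and 1.39 CPM. The cells with 1 UMI, just outside the rule, lay between the 0-UMI and 2-UMI cells for ABHD12B, STOM, PCAT14, HORMAD1 and GDF3 in the ordinary SO-L1 class.

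**Figure D2:**
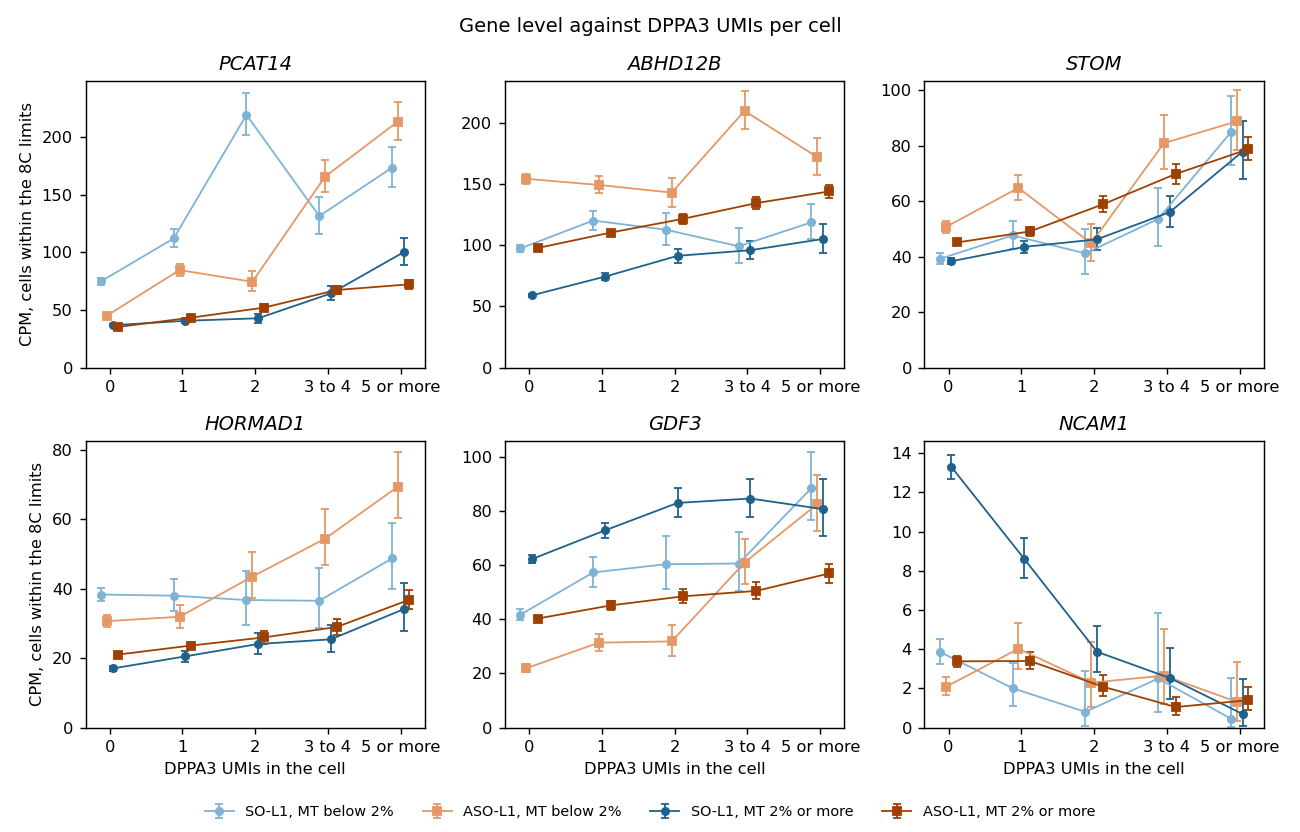
Level in CPM of named genes by number of DPPA3 UMIs per cell, among cells within the 8C limits, with the exact 95% counting interval, for each library and mitochondrial class. ABHD12B, STOM and PCAT14 step up with DPPA3 in ordinary cells of both libraries, while NCAM1 is highest in cells with few or no DPPA3 UMIs.

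The other DPPA genes and DNA methylation partners were near level in ordinary cells. DPPA2 had ratios of 1.10 and 1.20 in SO-L1 and ASO-L1 and DPPA4 of 1.06 and 1.02; both encode nuclear proteins of pluripotent cells. DPPA5, an RNA-binding protein gene of naive cells, stood at 316 and 247 CPM in SO-L1 (1.28) and 366 and 301 CPM in ASO-L1 (1.22). UHRF1, the partner of DPPA3, had ratios of 0.928 and 0.882, and DNMT1 of 0.981 and 0.941. The de novo methyltransferase genes DNMT3A (1.02 and 1.0) and DNMT3B (1.09 and 1.0) were level, while their cofactor DNMT3L stood at 8.62 and 5.64 CPM in SO-L1 (1.53, 1.29 to 1.80) and 10.6 and 7.39 CPM in ASO-L1 (1.44, 1.31 to 1.58). ZFP57, which protects imprinted methylation, had ratios of 2.60 (1.94 to 3.44) and 1.49 (1.15 to 1.92). The demethylase genes TET1 (1.08 and 1.11) and TET3 (0.955 and 0.819) lay near 1. Of the DNA methylation list, 2 of 23 genes were at least 1.5-fold higher in SO-L1 and 0 of 23 in ASO-L1, and the list's median log2 ratio was 0.02 and −0.02, against 0.00 and −0.03 for all genes.

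Of 18 other genes starting within 500 kb of DPPA3, those of known role in these cells are given. GDF3, a TGF-beta family ligand whose start lies at −15.7 kb, stood at 83.2 and 62.1 CPM in ordinary SO-L1 cells (1.34, 1.27 to 1.41) and at 51.4 and 39.5 CPM in ordinary ASO-L1 cells (1.3, 1.25 to 1.35). NANOG, a core pluripotency factor whose start lies at 76.3 kb, had ratios of 1.06 and 1.11. SLC2A3, a glucose transporter gene at 225 kb, had 1.22 and 1.21, and its near-identical neighbour SLC2A14, whose reads may be shared with it, 1.17 and 0.921. POU5F1 (0.985 and 1.02) and SOX2 (0.917 and 1.0), on other chromosomes, were level.

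In the low class the libraries differed in how many DPPA3-zero cells held 8C genes, and the counts for ASO-L1 moved with those cells. In SO-L1, 109 of 14016 genes (0.778%) were at least 1.5-fold higher in DPPA3 cells and 822 (5.86%) lower. In ASO-L1, 2055 of 15239 (13.5%) were higher and 2022 (13.3%) lower. In low ASO-L1, 34.0% of DPPA3-zero cells broke the 8C limits, against 7.36% in low SO-L1, 7.93% in ordinary ASO-L1 and 1.86% in ordinary SO-L1. Held to the 8C limits, the low ASO-L1 comparison gave 697 higher and 1305 lower genes. Among cells with 5 or more LUZP2 UMIs it gave 312 and 1005. Among cells without a UMI of IL24, CER1 or KRT17 it gave 280 and 1160. IL24, a cytokine gene, reached 5 UMIs in 3.63% of low ASO-L1 DPPA3 cells and 17.6% of DPPA3-zero cells, and LUZP2 did in 48.7% and 24.1%. Of the genes measured in both libraries, 57 were higher in both, which was 61.3% of the SO-L1 and 2.86% of the ASO-L1 genes, against 14.6% and 0.680% of all genes measured in both. Lower in both were 315, which was 42.5% and 24.6%, against 9.35% and 5.42% of all. Of the 741 lower SO-L1 genes, 45 lay 1.5-fold or more on the higher side in ASO-L1, where 14.6% of all genes measured in both libraries did.

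Genes higher in low-class DPPA3 cells of both libraries included THY1, ETV5, PCAT14 and GDF3. Of the genes named here, THY1 is on the lists of primed pluripotency and fibroblast genes, and GDF3, VSNL1 and OLAH are on the naive list. THY1, a surface glycoprotein gene, stood at 79.1 and 29.6 CPM in SO-L1, a ratio of 2.67 (2.41 to 2.96), and at 80.0 and 30.6 CPM in ASO-L1, a ratio of 2.62 (2.41 to 2.84). Its ordinary-class ratios were 1.08 and 1.09. ETV5, a transcription factor gene of the FGF response, stood at 14.3 and 4.89 CPM in SO-L1 (2.92) and 18.5 and 4.08 CPM in ASO-L1 (4.54, or 2.99 with the DPPA3-zero cells held to the 8C limits). PCAT14 stood at 178 and 74.0 CPM in SO-L1 (2.41, 2.25 to 2.58) and 145 and 35.9 CPM in ASO-L1 (4.05, 3.79 to 4.32; 3.23 with the 8C limits and 2.13 among LUZP2 cells). GDF3 stood at 69.7 and 39.6 CPM in SO-L1 (1.76, 1.59 to 1.95) and 56.2 and 15.2 CPM in ASO-L1 (3.71, 3.34 to 4.11; 2.57 with the limits). VSNL1, a neuronal calcium sensor gene, had ratios of 2.75 and 3.43, and METTL7A, a methyltransferase gene, of 2.09 and 3.26. For OLAH, a lipid hydrolase gene with ratios of 3.27 and 2.97, 5 cells held 55% and 69% of the UMIs.

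Genes of the interferon and integrated stress response lists were among those lower in low-class DPPA3 cells. IFIT2, an interferon response gene, had 0 UMIs in the DPPA3 cells of both libraries against 10.3 and 4.52 CPM in DPPA3-zero cells; taking 3 UMIs in place of 0, its level was at most 0.0432 times that of SO-L1 and at most 0.0639 times that of ASO-L1 DPPA3-zero cells. IFIT1 had ratios of 0.0429 and 0.0996. KRT17, a keratin gene, had ratios of 0.0824 and 0.154, and TM4SF19, a tetraspanin-related gene with 3 UMIs in low SO-L1 DPPA3 cells, of 0.0372 (0.00764 to 0.109) and 0.150. ATF3, a stress-induced transcription factor gene, had ratios of 0.464 and 0.412, and HERPUD1, an endoplasmic reticulum stress gene, of 0.434 and 0.353. In ordinary cells HERPUD1 was not lower, with ratios of 1.21 and 1.01. ALPP, a placental alkaline phosphatase gene of the naive list, had ratios of 0.184 and 0.231 in the low class. ALPG, a related gene of the same list, had low-class ratios of 0.456 and 0.445. IL24 stood at 18.7 CPM against 107 in low ASO-L1, a ratio of 0.174. Of the interferon list, 9 of 19 genes were at least 1.5-fold lower in SO-L1 and 9 of 18 in ASO-L1, where 4 were higher, against 5.86% lower in SO-L1 and 13.3% lower and 13.5% higher in ASO-L1 for all genes. Of the integrated stress response list, 6 of 22 and 11 of 23 were lower. Of heat shock genes 9 of 17 were lower in ASO-L1, while 1 of 16 was in SO-L1, near the share of all genes and with a median log2 ratio of 0.029. With the ASO-L1 DPPA3-zero cells held to the 8C limits, the median log2 ratio of the interferon list moved from −0.61 to −0.33, that of stress response genes from −0.54 to −0.34 and that of heat shock genes from −0.64 to −0.28. These medians moved on thinning, which also leaves fewer genes to measure and changes which cells are DPPA3 cells. In cells thinned to 8000 UMIs the interferon median was 0.036 in SO-L1 and 0.22 in ASO-L1, over 4 and 6 measured genes, and that of stress response genes was 0.056 in SO-L1 and −0.23 in ASO-L1.

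**Figure D3:**
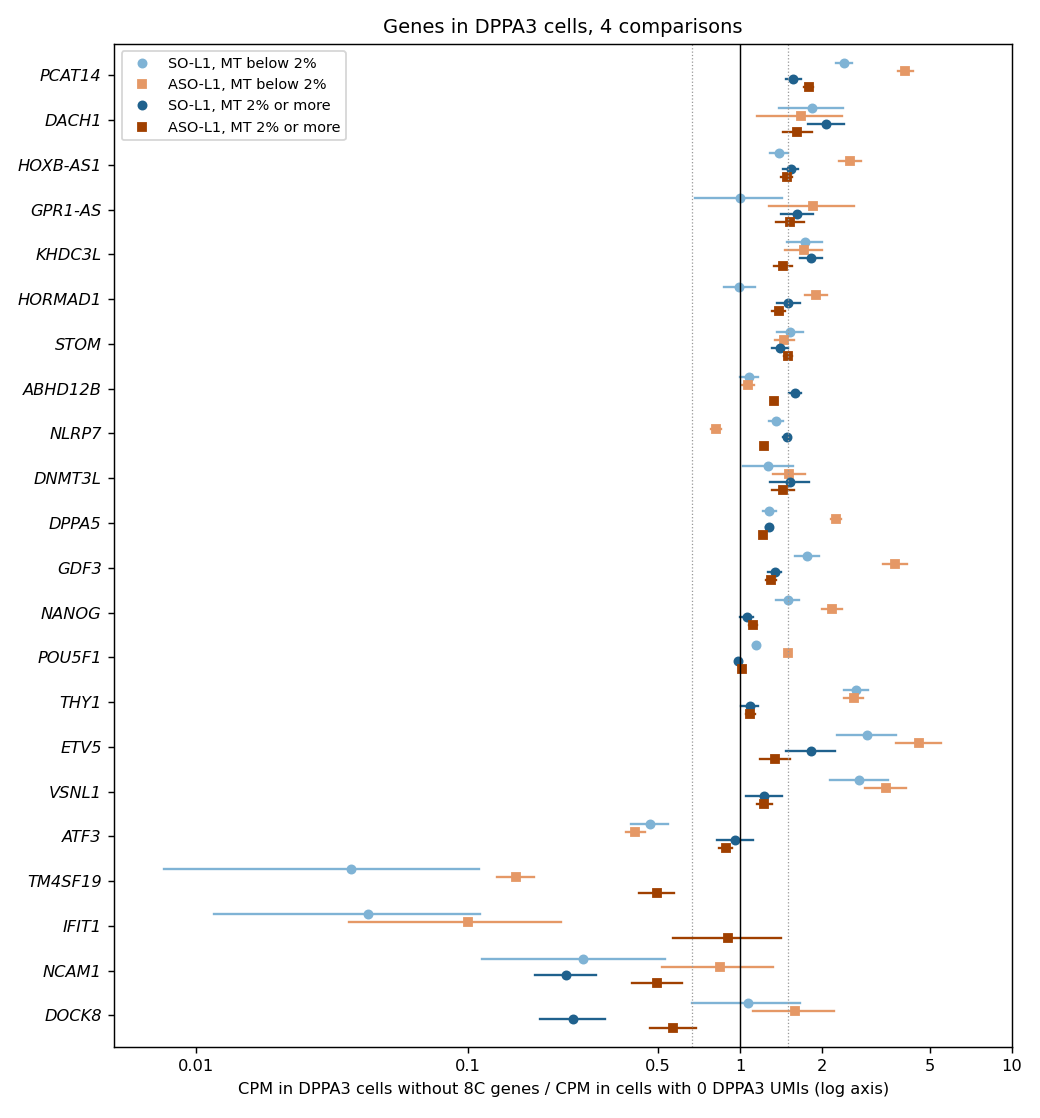
Ratio of each named gene's level in DPPA3 cells over DPPA3-zero cells on a log axis, with the exact 95% counting interval, by library and mitochondrial class. PCAT14 and DACH1 lie above 1 in all 4 classes, and ATF3 and IFIT1 lie below 1 in the low class. Genes under 20 expected UMIs in a class are not drawn, and the dotted lines stand at 1.5-fold.

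General pluripotency genes were higher in DPPA3 cells mainly in the low class of ASO-L1. Of those measured, 1 of 23 was at least 1.5-fold higher in SO-L1 (median log2 ratio 0.19) and 14 of 23 in ASO-L1 (0.97), against 0.778% and 13.5% of all genes and all-gene medians of −0.06 and 0.00. With the 8C limits on the DPPA3-zero cells the ASO-L1 median was 0.58, and among cells without IL24, CER1 or KRT17 it was 0.35. NANOG had low-class ratios of 1.5 and 2.18 and SOX2 of 1.07 and 2.02, DPPA5 of 1.28 and 2.25, and DNMT3B of 1.14 and 2.53, with NANOG at 1.70, DPPA5 at 1.60 and DNMT3B at 1.73 in ASO-L1 once the limits were applied. In ordinary cells the list's medians were 0.00 and 0.03 and 0 of 24 genes were 1.5-fold higher in either library. Naive genes had medians of 0.18 and 0.17 in ordinary SO-L1 and ASO-L1 cells. There 4 of 29 and 1 of 33 were higher, and 1 and 2 lower. In the low class their medians were 0.20 and 0.55, with 4 of 29 and 15 of 30 higher, and 5 and 7 lower. Primed genes had low-class medians of 0.04 and 0.67, with 2 of 18 and 10 of 20 higher, and 1 and 3 lower. With the 8C limits on the DPPA3-zero cells, the low ASO-L1 medians were 0.35 for naive and 0.39 for primed genes. Of the trophectoderm list, 3 of 11 and 8 of 13 were lower in low SO-L1 and ASO-L1 cells, against 5.86% and 13.3% of all genes.

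**Figure D4:**
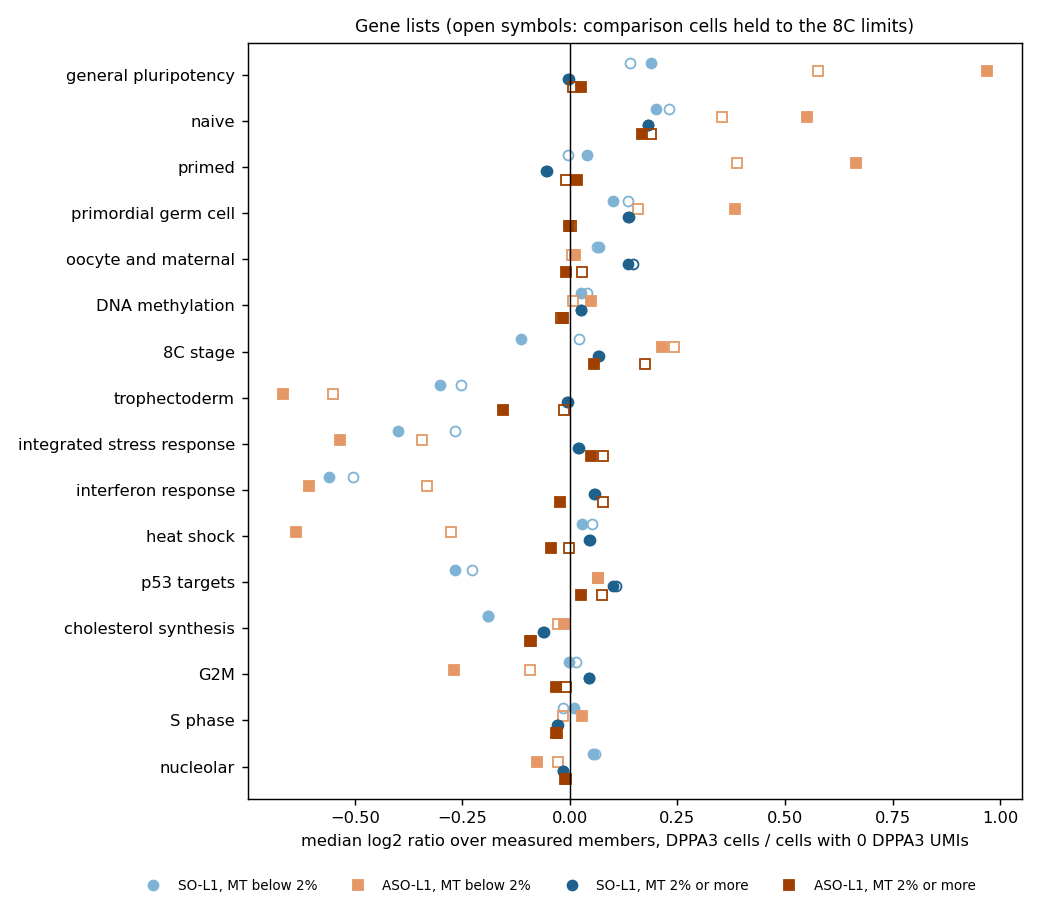
Median log2 ratio of DPPA3 cells over DPPA3-zero cells for each gene list, by library and mitochondrial class; open symbols have the DPPA3-zero cells held to the 8C limits. In the ordinary class most lists lie near 0. In the low class general pluripotency and naive genes lie above 0, as do primed genes in ASO-L1. Integrated stress response, interferon and trophectoderm genes lie below 0 there.

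Between the libraries, ordinary DPPA3 cells of ASO-L1 had 10.3% of 16253 genes at least 1.5-fold higher than those of SO-L1 and 16.1% lower. Ordinary DPPA3-zero cells had 12.3% and 15.4% of 22134. Low DPPA3 cells had 14.9% of 13793 higher and 10.2% lower, against 23.0% and 25.8% of 19743 in DPPA3-zero cells. Integrated stress response genes were higher in ASO-L1 in both kinds of cell, with 14 of 23 at least 1.5-fold higher in ordinary DPPA3 cells and a median log2 ratio of 0.82, against 0.79 in DPPA3-zero cells. Cholesterol synthesis genes were lower, with 13 of 22 in ordinary DPPA3 cells and a median of −0.65, against −0.57. General pluripotency genes had a median of 0.02 in low DPPA3 cells and −0.62 in low DPPA3-zero cells. DHCR7, a late step of cholesterol synthesis, stood at 39.3 CPM in ordinary SO-L1 and 15.9 CPM in ordinary ASO-L1 DPPA3 cells, a ratio of 0.404. GDF3 stood at 83.2 and 51.4 CPM (0.618), and in DPPA3-zero cells had a ratio of 0.637. VIM, an intermediate filament gene, was 4.04-fold higher in ASO-L1 among ordinary DPPA3 cells and 3.59-fold higher among ordinary DPPA3-zero cells. DPPA3 itself was at 1.10 times the SO-L1 level in ordinary and 0.933 times in low DPPA3 cells. The rule selected these cells on DPPA3 UMIs, so these ratios are a description. Over all kept ordinary cells DPPA3 stood at 22.9 CPM in ASO-L1 and 11.1 CPM in SO-L1. Over all kept low cells it stood at 92.3 and 21.9 CPM.

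DPPA3 cells without 8C genes differed from the 502 ASO-L1 DPPA3 cells with 8C genes in many genes that the rule did not use, and these values are a description. In ordinary cells 5.62% of 15329 genes were at least 1.5-fold higher without 8C genes and 11.2% lower, and in low cells 31.7% of 15186 were higher and 18.4% lower. Of other 8C genes, 14 of 16 ordinary and 15 of 17 low were lower, with median log2 ratios of −4.98 and −3.56. CCNA1, a germline cyclin, stood at 0.0486 and 0.238 times the level with 8C genes, and KLF17 at 0.0171 and 0.0178 times. DPPA3 stood at 68.1 CPM without 8C genes and 149 CPM with them in ordinary cells, and at 97.7 and 516 CPM in low cells. General pluripotency genes were higher without 8C genes, 5 of 24 in ordinary cells (median 0.48) and 17 of 23 in low cells (1.25), with GDF3 1.67-fold and 4.32-fold higher. Heat shock genes were lower, 8 of 16 in ordinary cells (−0.69) and 12 of 17 in low cells (−0.94).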

How the data were processed

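The deposited files hold UMI counts per gene and barcode, per the file headers, with hg38 and Cell Ranger 7.1.0 named in the submitters' processing notes. The sources used here do not state the annotation release, intronic counting or strand use. Kept cells, filters and comparison cells are those in the text. UMIs were summed over cells, divided by the non-mitochondrial total to give CPM, and ratios given exact conditional 95% intervals. Genes counted as measured from 20 expected UMIs in the DPPA3 cells. Lists are described by counts at 1.5-fold and medians. With 1 library per group, no test was made. No doublet caller was used.

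The members and lists were chosen with earlier results of these data known. Named genes are, per mitochondrial class, the 12 highest and 8 lowest by the interval bound nearest to 1 in both libraries, plus the 2 largest and the most abundant of each list, the genes within 500 kb and a set of pluripotency, methylation and germ cell genes. The rule names 172 genes, of which the text describes a part. The 569 list entries were matched by symbol or identifier, 1 without a match. The computation of ratios was tested on simulated data with known fold changes. Positions come from GENCODE 29 by gene identifier. Alternatives changed the DPPA3 limit, the filters, depth, cell weights and comparison cells.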

Additional observations from a re-analysis of the deposited data

Results flagged for a closer look

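DPPA3 UMIs were also present among barcodes that the filter on cells left out. The 6045 SO-L1 barcodes with fewer than 1000 detected genes held 200 DPPA3 UMIs, or 27.0 per 1000000 of all their UMIs, and the 2045 such ASO-L1 barcodes held 92, or 21.1 per 1000000. These barcodes belong to no comparison of the report. On the same scale, with mitochondrial UMIs in the total, all kept cells held 21.8 (low class) and 10.1 (ordinary class) in SO-L1 and 92.1 and 21.2 in ASO-L1. The low-gene barcodes of SO-L1 therefore lie above both classes of kept cells, and those of ASO-L1 at about the ordinary class.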

How the results depend on the processing

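No paired analysis was possible because each group has 1 library and the labels give no replicate numbers. Of 1991 gene ratios that were at least 1.5-fold as reported and could be measured under an alternative, 22 lay on the other side of 1. Ratios that changed in size without crossing 1 are not in that count. At 8000 UMIs, 303 gene values could not be measured. Of 72 list medians at least 1.5-fold as reported, 2 took the other sign, and of 136 gene counts, 95 stayed within 1.5 times. Reweighting by depth, 2000 genes with 10% mitochondrial UMIs, leaving out shared barcodes and the full total moved no count past 1.5 times, and a mitochondrial split at 1% or 3% moved no share past its interval. The restrictions to LUZP2 cells and to cells without IL24, CER1 or KRT17 were chosen after seeing the data. No alternative covers the spread between libraries. The causes of the changes were not tested. By construction, thinning and the lower limit on UMIs change how many genes are tested. Thinning also changes which cells are DPPA3 cells and DPPA3-zero cells, because the rule was applied again to the thinned counts.

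With DPPA3 at 3 or more UMIs, the shares of cells were 4.95% and 4.11% in low and ordinary SO-L1 and 4.74% and 9.75% in low and ordinary ASO-L1, and at 5 or more UMIs 2.48%, 1.21%, 2.37% and 4.44%. At 8000 UMIs per cell they were 2.90%, 0.713%, 2.42% and 2.15%. Without IL24, CER1 or KRT17 UMIs the low ASO-L1 share was 10.9%.

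Genes higher and lower in DPPA3 cells at 8000 UMIs numbered 53 and 259 in low SO-L1, and 36 and 96 in ordinary SO-L1. They numbered 163 and 350 in low ASO-L1, and 43 and 229 in ordinary ASO-L1. In the same order, 3584, 2146, 4165 and 7275 genes were measured. At full depth 14016, 16495, 15239 and 19746 genes were measured. Of the called genes, 3 and 8, 1 and 0, 87 and 145, and 2 and 1 were also called at full depth. How many full-depth calls could still be measured at 8000 UMIs is not given. These overlaps, and those between libraries below, therefore cannot be judged. Between libraries, 625 genes were higher and 607 lower in low ASO-L1 DPPA3 cells, against 2050 and 1402 as reported. In ordinary cells 292 and 214 were, against 1678 and 2610. Of these, 234 and 201 in low and 116 and 99 in ordinary cells were also called at full depth. With no filter on scarce genes the same counts were 2390 and 3431, 2898 and 2196, 5100 and 4565, and 1851 and 2982, and between libraries 4452 and 4482 in low and 3581 and 6512 in ordinary cells. With cells weighted equally, 1925 genes were lower in low SO-L1, 622 lower in ordinary SO-L1, 955 higher in low ASO-L1 and 2068 lower in ordinary ASO-L1. At 5 or more DPPA3 UMIs, 203 were higher in low SO-L1, and 1075 were higher and 1425 lower between ordinary libraries. With the comparison cells held to the 8C limits, low ASO-L1 gave 697 and 1305. Among LUZP2 cells it gave 312 and 1005, ordinary ASO-L1 209 and 304, and between libraries 1255 were higher in low and 1202 lower in ordinary cells. Without IL24, CER1 or KRT17, low ASO-L1 gave 280 and 1160.

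At 8000 UMIs the ratios that crossed 1 were ALPG at 1.04 and GADD45A at 1.02 in low SO-L1, and ALPG at 1.15 and DNMT1 at 0.826 in low ASO-L1, where the median log2 ratio of primed genes was −0.071 and that of interferon genes 0.22. Under equal weights DACH1 was 0.961 in low ASO-L1. At 3 or more DPPA3 UMIs SLC28A2 was 0.763 in ordinary SO-L1 and GABRR3 0.610 in ordinary ASO-L1, and at 5 or more ZNF280A was 1.16 and CD163L1 1.03 in low ASO-L1. With the 8C limits CCNA1 was 1.04 in low SO-L1, ZNF280A 1.05 in low ASO-L1 and IL24 1.05 in ordinary ASO-L1. The stricter filter put RHOJ at 0.219 in ordinary SO-L1. Among LUZP2 cells of low ASO-L1, YPEL2 was 0.825, KHDC3L 0.907, CKS2 1.02, DHCR7 0.967 and CD163L1 1.28. Without IL24, CER1 or KRT17, CCNA1 was 1.01 in low SO-L1, SLC28A2 0.869 in ordinary SO-L1, DHCR7 0.991 in low ASO-L1 and ALPP 1.09 in ordinary ASO-L1.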
